A study of Mus musculus with 11 samples.

Results

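Hearts labelled as depleted of macrophages were compared with hearts labelled as knockouts of Mertk, a receptor that macrophages use to take up dying cells, over all genes: 3 libraries titled cTMs Depleted (here Macrophage-depleted, n = 3) against 2 libraries labelled Mertk-KO (n = 2), which are 5 of the 11 libraries of the series. Libraries entered by their titles alone. All mice were male and 8 to 12 weeks old, and each library is RNA of a heart. The mice of Macrophage-depleted were CD169-DTR, whose CD169-expressing cells bear the receptor for diphtheria toxin. They received 0.01 µg of toxin per g of body weight at each of 3 injections a week over 3 weeks, and the labels put the length of the depletion at 21 days. In WT (n = 3) the same injections were given. Mertk-KO mice carry the knockout by their labels, and the labels give neither the deleted part of the gene nor any toxin for them, so loss of cells, the CD169-DTR allele and toxin cannot be told apart in the direct comparison. A further group without the liver X receptors alpha and beta (LXR-DKO, n = 3) served to estimate the spread between libraries. It also enters a comparison of length trends and one of Mertk. The labels do not tie each library to its own mouse, and p-values therefore measure only the spread among libraries, part of which may be technical.

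Cardiac macrophages that express CD169 lie among cardiomyocytes and take up dying cells and debris. Mertk binds phosphatidylserine on that cargo through soluble bridging proteins, while Timd4 binds phosphatidylserine directly. Depletion is aimed at the cells themselves, whereas a Mertk knockout is aimed at 1 of their uptake receptors.

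The 5 libraries held 10938600 to 20722295 estimated reads, with 17514 to 19903 genes detected, and a count of 0 allowed up to 2.12 to 4.22 normalised counts (3 reads; counting error only). Values are normalised counts, which are estimated reads put on a common library size. Fold changes are Macrophage-depleted minus Mertk-KO on the scale of log2(normalised count + 1). A negative value is lower in Macrophage-depleted than in Mertk-KO. Lower or higher after depletion means that difference and does not say which group departed from WT. The 17 sarcomere genes tested, which mark heart muscle, summed to 962633 to 1239420 normalised counts in the 5 libraries. Across genes the log values of the Mertk-KO pair correlated at 0.959, below the 0.980 to 0.987 within Macrophage-depleted and inside the 0.952 to 0.961 between the groups, so the Mertk-KO libraries stood apart from each other. Interferon-stimulated genes summed to 4584 in Mertk-KO 1 but 49028 in Mertk-KO 2, while the Hsp70 chaperone Hspa1a had 2007 normalised counts in the former against 105. Macrophage-depleted 1 stood apart by keeping more Siglec1 than the other depleted libraries.

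Siglec1, which encodes CD169 (ENSMUSG00000027322; GRCm38 chr2:131069220-131086765), had 33.8, 2.12 and 0.719 normalised counts in the 3 Macrophage-depleted libraries and 87.9 and 66.8 in the 2 Mertk-KO libraries. The depleted libraries were all lower, without overlap, and Macrophage-depleted 1 kept the most. Siglec1 was called lower (log2 fold change -3.76, SE 0.89, limma adjusted p 0.0149). In the toxin-treated WT libraries Siglec1 was at 64.3, 55.3 and 53.4. The toxin receptor sits at the Siglec1 locus, so loss of cells and an effect of the allele on Siglec1 cannot be told apart. The call was lost with 1 library left out for Siglec1 (-3.33 omitting Macrophage-depleted 2). The TPM table left Siglec1 (-2.23) uncalled. So did a weight per library (-4.29, limma adjusted p 0.0765) and a fit of these 5 libraries alone (-3.76, limma adjusted p 0.109). Mertk itself (ENSMUSG00000014361; chr2:128698956-128802894) was at 125, 93.3 and 75.4 in Macrophage-depleted and 75.7 and 89.4 in Mertk-KO by label. These values overlap, and no difference was called (log2 fold change 0.22, SE 0.19, limma adjusted p 0.438; 95% interval -0.20 to 0.64). In WT Mertk was at 131, 147 and 129.9, and Mertk-KO was called lower than WT (log2 difference -0.71, limma adjusted p 0.0408). That comparison was not adjusted for transcript length. LXR-DKO had Mertk at 93.6, 102.6 and 100.5, and Mertk-KO was not called against LXR-DKO (log2 difference -0.26, limma adjusted p 0.470). Mertk counts remained in both Mertk-KO libraries, and a count over the whole gene does not show which exons they come from.

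Of 13884 genes tested, 2911 differed at a limma adjusted p below 0.05, which is 21.0% of all, with 1607 higher (11.6%) and 1304 lower (9.39%) in Macrophage-depleted. Most differences were small: the median size among the genes called was 0.56 on the log2 scale, and 492 exceeded 2-fold, 348 higher and 144 lower. Libraries of the groups did not overlap for 45.4% of the genes, 22.9% with depleted higher and 22.6% with depleted lower. The 20 genes named for size had to be separate between the groups, so their lack of overlap adds no support. The calls followed transcript length. Among genes with transcripts of 59 to 2185 bases, 78 were higher and 684 lower after depletion, whereas among those of 4820 bases or more, 996 were higher and 72 lower. Relative to WT, the level of a gene fell with its length in both Mertk-KO libraries (Spearman rho across 13871 genes -0.26 and -0.50), against -0.04, 0.22 and 0.06 in the Macrophage-depleted libraries and -0.14 to -0.37 in LXR-DKO. Removing each library's trend over length and GC content left other calls: 1294 genes passed (9.33%), 516 higher (3.72%) and 778 lower (5.61%), and the share of higher calls went from 55.2% to 39.9%. In both fits 906 genes passed in the same direction, 455 higher and 451 lower. Fitting these 5 libraries alone left 146 calls, and weighting each library by its own spread left 438, with a weight of 0.327 for each Mertk-KO library against 0.810 to 1.81 for Macrophage-depleted. Of the 110 called genes that the naming rule picked, 16 passed in the former fit and 34 in the latter.

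**Figure D1:**
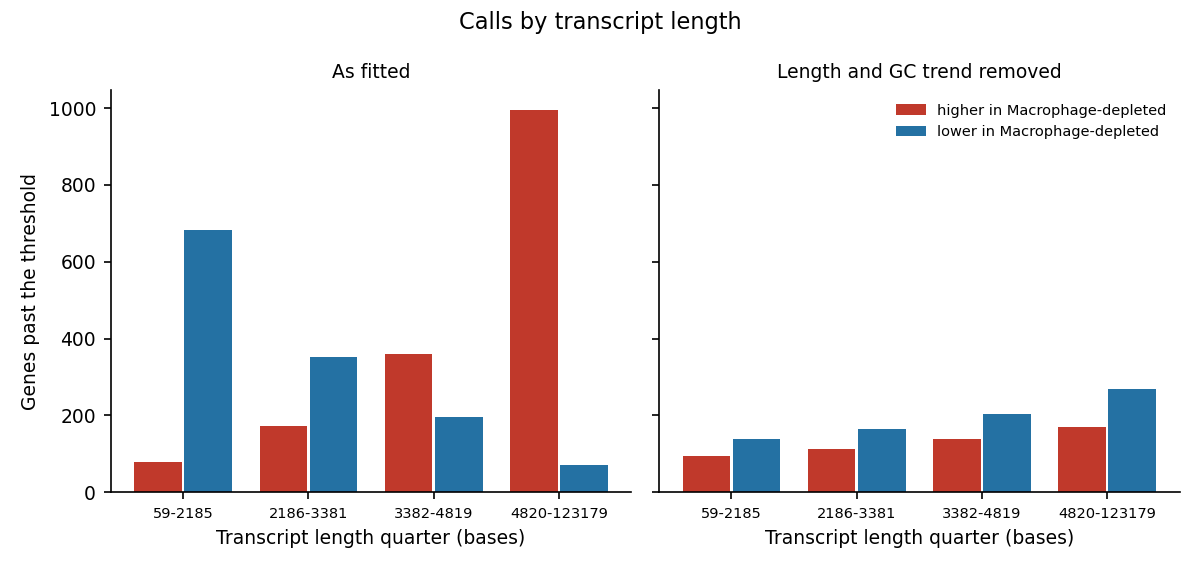
Bars count the genes past the threshold in each of 4 classes of the tested genes by transcript length (bases), red for higher and blue for lower in Macrophage-depleted, as fitted (left) and with the length and GC trend removed (right). Lower genes are most numerous among the shortest transcripts (684) and higher genes among the longest (996), and after removal the classes hold 94 to 170 higher and 140 to 269 lower genes.

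Most macrophage markers tested were lower in Macrophage-depleted than in Mertk-KO, and Timd4 had the greatest fall of the 20 genes named for size. Of the 14 resident cardiac macrophage markers tested, 8 were lower in Macrophage-depleted and 0 higher, with a median of -1.76 against 0.02 over all genes. Of 20 pan-macrophage markers, 15 were lower and 0 higher (median -1.20). Those lower calls were 57.1% and 75% of the lists, against 9.39% over all genes. Without Macrophage-depleted 3 the resident median was -0.97. Adjusted for length and GC, 7 resident and 11 pan-macrophage markers were lower. With a weight per library 2 and 3 were lower, and with these 5 libraries fitted alone 1 and 0. Against WT, 2 and 0 were called lower in Macrophage-depleted, with list medians of -1.48 and -0.73. Mertk-KO against WT had 0 calls in both lists, with medians of 0.06 and 0.52. In bulk heart RNA, fewer macrophages and less RNA per macrophage cannot be told apart.

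Timd4, the phosphatidylserine receptor of resident macrophages (chr11:46810800-46844332), had 1.41, 2.12 and 1.44 normalised counts in the Macrophage-depleted libraries and 26.6 and 64.7 in Mertk-KO. Every depleted library was at or under the level of 3 reads, far below both Mertk-KO libraries (log2 fold change -4.01, SE 0.42, limma adjusted p 0.000635). Cd163, a receptor through which macrophages clear haemoglobin-haptoglobin, was at 36.6, 26.2 and 7.89 against 198 and 153 (log2 fold change -3.07, SE 0.44, limma adjusted p 0.0029). Depleted libraries were lower without overlap, and Macrophage-depleted 3 was the lowest. Folr2, a folate receptor of resident macrophages, was at 74.6, 38.2 and 13.7 against 133 and 179.9 (log2 fold change -2.15, SE 0.48, limma adjusted p 0.012). Lyve1, a hyaluronan receptor, was at 141, 153 and 92.1 against 214 and 212 (log2 fold change -0.76, SE 0.19, limma adjusted p 0.0194), with no overlap. The remaining resident markers called were Ccl24, a chemokine (-2.62), Pf4, platelet factor 4 (-1.76), and Stab1, a scavenger receptor (-0.62), all lower. Calls that depended on 1 library were those of Ccl24 (-2.43 omitting Mertk-KO 1), Pf4 (-1.68 omitting Mertk-KO 2) and Stab1 (-0.62 to -0.38, 6 of 11 fits). A shift was seen for Pf4 to -1.09 omitting Macrophage-depleted 3 and Stab1 to -0.96 in the TPM table. Uncalled after the length and GC adjustment were Pf4 (-1.50), and in the TPM table Lyve1 (-0.62) and Pf4 (-1.65).

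Among pan-macrophage genes, Csf1r, the receptor that macrophages need to survive, was at 419, 306 and 196 in Macrophage-depleted and 657 and 787 in Mertk-KO (log2 fold change -1.29, SE 0.23, limma adjusted p 0.00543). It kept a sizeable level in all 3 depleted libraries and did not overlap with Mertk-KO. Lyz2, lysozyme, was at 1088, 891 and 677 against 1810.5 and 2594 (log2 fold change -1.32, SE 0.19, limma adjusted p 0.0032). The complement subunits C1qa, C1qb and C1qc, made by macrophages, fell together. C1qa was at 281, 209 and 61.9 against 589 and 929 (log2 fold change -2.26, SE 0.47, limma adjusted p 0.00931), and C1qb and C1qc fell by 1.82 and 2.16 on the log2 scale. Laptm5, a lysosomal membrane protein of blood cells, was at 238, 235 and 196 against 331 and 459 (log2 fold change -0.81, SE 0.15, limma adjusted p 0.00619). Aif1, an actin-binding protein of macrophages, was at 16.9, 9.90 and 0 against 25.2 and 85.1 (log2 fold change -3.03, SE 0.95, limma adjusted p 0.0413), and none of its reads were counted in Macrophage-depleted 3. The threshold was missed, with 1 library left out, by Aif1 (-3.49 to -1.77, 9 of 11 fits). Once adjusted for length and GC, Aif1 (-2.79) did not pass, nor did Aif1 (-3.33) in the TPM table. In Mertk-KO 2 the pan-macrophage markers summed to 8838, above 5753 in Mertk-KO 1 and the 4432 to 5372 of WT. For the pan-macrophage markers, the counts with 1 library left out were 8 (without Mertk-KO 2) to 17 (without Mertk-KO 1) lower.

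**Figure D2:**
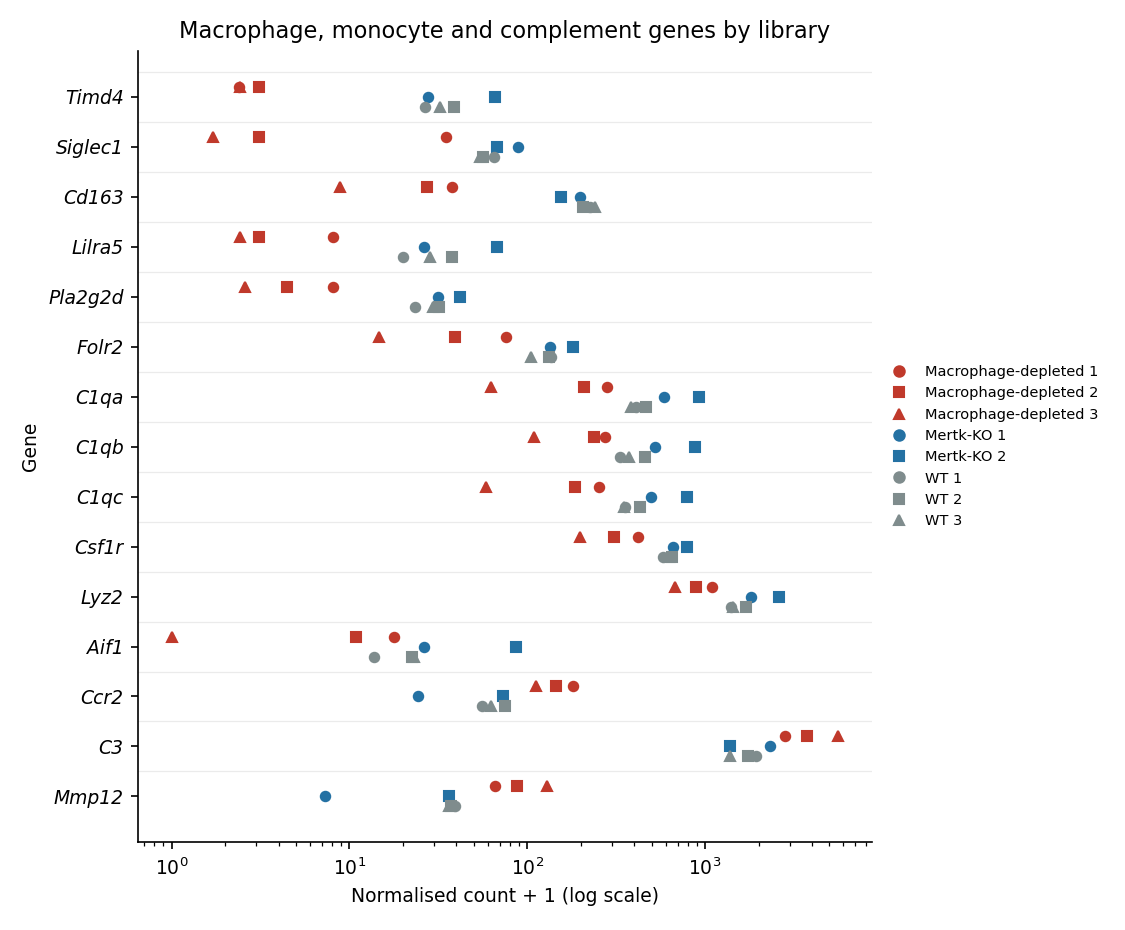
Each point is 1 library's normalised count + 1 on a log axis, red for Macrophage-depleted, blue for Mertk-KO and grey for WT, with a shape per replicate number. Timd4 sits at 1.41 to 2.12 normalised counts in the depleted libraries and at 26.6 and 64.7 in Mertk-KO, while Ccr2, C3 and Mmp12 are higher in the depleted libraries.

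Myeloid genes moved in both directions. Lilra5, a leukocyte receptor, and Pla2g2d, a secreted phospholipase of myeloid cells, fell with the macrophage genes, at 7.04, 2.12 and 1.44 against 25.2 and 66.8 for Lilra5 (log2 fold change -3.42, SE 0.55, limma adjusted p 0.00382) and 7.04, 3.48 and 1.60 against 30.6 and 40.9 for Pla2g2d (log2 fold change -3.00, SE 0.46, limma adjusted p 0.00352). Ccr2, the chemokine receptor that brings monocytes out of the blood, was higher after depletion, at 179.7, 145 and 112 against 23.3 and 72.0 (log2 fold change 1.77, SE 0.38, limma adjusted p 0.0101). All 3 depleted libraries exceeded both Mertk-KO libraries and the WT libraries (54.9, 74.1 and 61.4). Of the 7 monocyte and recruited macrophage markers tested, Ccr2 was the only one called (14.3%, against 11.6% higher over all genes). Among the monocyte and recruited macrophage markers, fits lacking 1 library called 1 to 2 (without Mertk-KO 1 or Mertk-KO 2) higher and 0 to 1 (without Mertk-KO 2) lower. Ly6c2, a monocyte surface protein with near-identical gene copies, had 88.6, 63.6 and 77.7 against 54.0 and 32.1 and missed the threshold (log2 fold change 0.85, limma adjusted p 0.0583). Mmp12, macrophage elastase, was at 64.6, 86.2 and 128 against 6.28 and 35.5 (log2 fold change 2.47, SE 0.55, limma adjusted p 0.012), with no overlap and the lowest value in Mertk-KO 1. Values shifted for Ccr2 to 0.98 omitting Mertk-KO 1 and Mmp12 to 1.31 omitting Mertk-KO 1. Of 5 neutrophil markers tested only Mmp9, a gelatinase, was called, lower (-1.22, limma adjusted p 0.042), which is 20% against 9.39% over all genes. None of 8 B cell markers was called (Ighm, the heavy chain of IgM, was at 98.5, 53.7 and 29.5 against 96.9 and 216). The call was lost with 1 library left out for Mmp9 (-1.35 to -0.90, 7 of 11 fits). Uncalled after the length and GC adjustment were Mmp9 (-1.09), and in the TPM table Mmp9 (-0.71). In the T and NK cell list 1 of 12 genes was high enough to test.

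Calls in the uptake machinery went in both directions, in shares near those over all genes. Of 22 genes for receptors, bridging proteins and engulfment, 3 were higher and 3 lower (13.6% each, against 11.6% and 9.39% over all genes). The median was 0.05 against 0.02 over all genes, and with the length and GC trend removed 0 were higher and 2 lower. The lower ones were Timd4, Stab1 and Mfge8, a bridging protein that binds phosphatidylserine (1510.5, 1356 and 1326 against 1966 and 1561; log2 fold change -0.33, SE 0.10, limma adjusted p 0.0395). The higher ones were Itgav, the integrin subunit that Mfge8 binds (411, 426 and 424 against 267 and 322; log2 fold change 0.52, SE 0.13, limma adjusted p 0.019), Gulp1, an engulfment adaptor (0.70), and Dock1, which activates Rac during engulfment (0.30). For the uptake genes, the counts with 1 library left out were 0 (without Macrophage-depleted 2 or Macrophage-depleted 3) to 3 (without Mertk-KO 2) higher and 1 to 4 (without Mertk-KO 2) lower. Their median ranged from -0.10 (without Mertk-KO 2) to 0.18 (without Macrophage-depleted 1). Calls that depended on 1 library were those of Itgav (0.51 omitting Macrophage-depleted 2, 0.51 omitting Macrophage-depleted 3, 0.38 omitting Mertk-KO 1), Mfge8 (-0.33 to -0.16, 7 of 11 fits), Gulp1 (0.46 to 0.79, 8 of 11 fits) and Dock1 (0.16 to 0.31, 10 of 11 fits). The fitted change moved for Mfge8 to -0.49 omitting Mertk-KO 2. Once adjusted for length and GC, Mfge8 (-0.14), Itgav (0.07), Gulp1 (0.24) and Dock1 (0.05) did not pass, nor did Mfge8 (-0.27), Itgav (0.34), Gulp1 (0.54) and Dock1 (0.27) in the TPM table.

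Of the MHC class II and interferon-stimulated genes some were lower after depletion, and without Mertk-KO 2 the counts were 0 class II genes and 1 interferon gene. Of 8 MHC class II genes, 4 were lower (50%, against 9.39% over all genes) and 0 higher, with a median of -1.67. Cd74, the invariant chain that escorts class II molecules, was at 1413, 731 and 718 in Macrophage-depleted and 1743 and 6135 in Mertk-KO (log2 fold change -1.85, SE 0.43, limma adjusted p 0.0144). Mertk-KO 2 was far above all others, and Mertk-KO 1 lay above the depleted libraries by much less. H2-Aa, a class II chain, showed the same split, with 619, 279 and 288 against 679.7 and 2750.3 (log2 fold change -1.89, SE 0.48, limma adjusted p 0.0199). Among the class II genes, fits lacking 1 library called 0 (without Macrophage-depleted 2 or Mertk-KO 2) to 7 (without Mertk-KO 1) lower. The median then ran from -2.74 (without Mertk-KO 1) to -0.54 (without Mertk-KO 2). The threshold was missed, with 1 library left out, by Cd74 (-1.70 omitting Macrophage-depleted 2, -0.94 omitting Mertk-KO 2) and H2-Aa (-1.69 omitting Macrophage-depleted 2, -1.72 omitting Macrophage-depleted 3, -0.88 omitting Mertk-KO 2). Values shifted for H2-Aa to -2.90 omitting Mertk-KO 1.

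Interferon-stimulated genes had 5 of 24 lower (20.8%, against 9.39% over all genes) and 0 higher, with a median of -1.05. Bst2, which tethers viruses to the cell surface, was at 127, 151 and 135 against 279 and 671 (log2 fold change -1.65, SE 0.28, limma adjusted p 0.00426). Cxcl9, a chemokine induced by interferon gamma, was at 66.2, 80.6 and 62.5 against 121 and 443 (log2 fold change -1.73, SE 0.41, limma adjusted p 0.0148). For both, all depleted libraries lay below both Mertk-KO libraries. Isg15, a ubiquitin-like protein, had 29.9, 37.5 and 32.1 against 49.1 and 98.0 (log2 fold change -1.05, SE 0.30, limma adjusted p 0.0294). The Mertk-KO libraries differed from each other across the whole list, with Mertk-KO 2 the higher for all 24 genes. Igtp, an immunity-related GTPase chosen after its values were seen, was at 188, 357 and 389.5 in Macrophage-depleted, 264 in Mertk-KO 1 and 12462 in Mertk-KO 2, and did not pass (limma adjusted p 0.102). Without Mertk-KO 1, 22 of 24 were lower and 0 higher, while without Mertk-KO 2, 1 was lower and 3 were higher and the median was 0.05, against -1.89 without Mertk-KO 1. Once the trend over length and GC was removed, 2 were lower. Leaving out 1 library ended the call for Cxcl9 (-0.79 omitting Mertk-KO 2) and Isg15 (-1.14 to -0.56, 4 of 11 fits). A shift was seen for Bst2 to -1.02 omitting Mertk-KO 2 and Cxcl9 to -2.66 omitting Mertk-KO 1. Uncalled after the length and GC adjustment were Isg15 (-0.77), and in the TPM table Cxcl9 (-1.54).

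**Figure D3:**
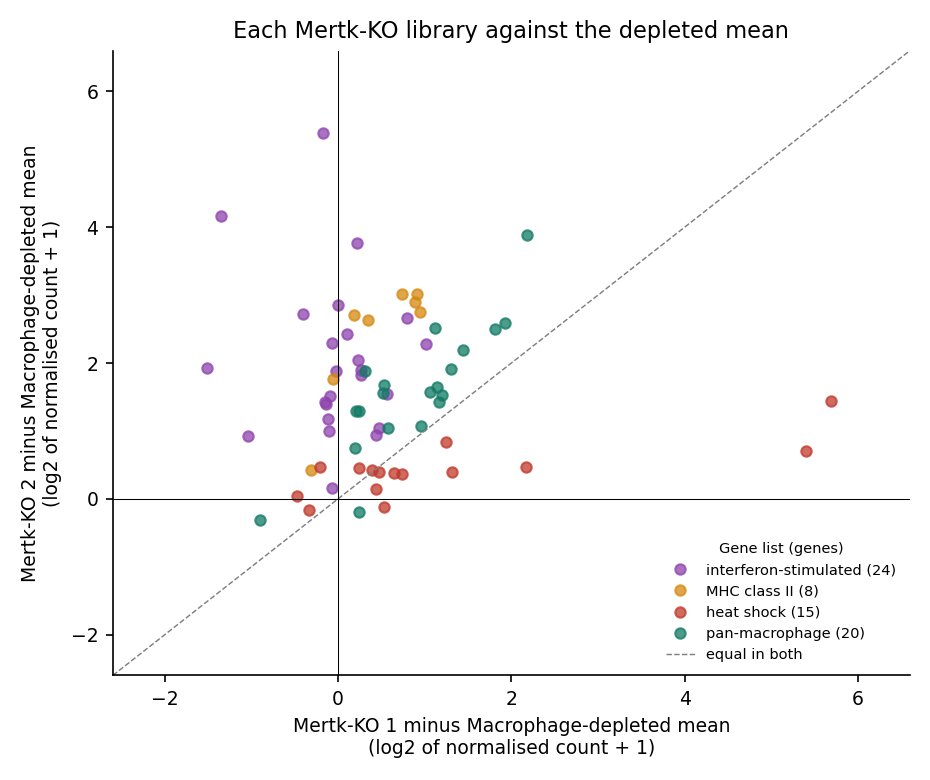
Each point is 1 gene of 4 lists, placed by its difference from the Macrophage-depleted mean in Mertk-KO 1 (x axis) and in Mertk-KO 2 (y axis), in log2 of normalised count + 1, with the dashed line marking equal differences. All 24 interferon-stimulated and all 8 MHC class II genes lie above the line (Igtp at 264 and 12462 normalised counts in Mertk-KO 1 and 2), and the heat shock points farthest below it are Hspa1a and Hspa1b.

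Complement genes moved in both directions, and few cytokine genes or liver X receptor targets passed. Il1b, the cytokine interleukin 1 beta, was at 4.22, 2.83 and 4.32 against 22.6 and 37.7 (log2 fold change -2.67, SE 0.57, limma adjusted p 0.0101). It was the only call among 9 inflammasome and cytokine genes (11.1%, against 9.39% lower over all genes). For the cytokine genes, the counts with 1 library left out were 0 to 2 (without Mertk-KO 2) higher and 0 (without Mertk-KO 2) to 2 (without Mertk-KO 1) lower. Of 16 complement genes 6 were lower, among them the 3 C1q subunits, properdin (Cfp, -0.71), the C5a receptor (C5ar1, -1.08) and adipsin (Cfd), and 3 were higher, against 4 and 1 with the length and GC trend removed. The complement calls were 37.5% lower and 18.8% higher, against 9.39% and 11.6% over all genes. With a weight per library, or with these 5 libraries fitted alone, 0 complement genes passed. C3, the central complement protein, was at 2803, 3753 and 5601 in Macrophage-depleted against 2317 and 1374 in Mertk-KO (log2 fold change 1.12, SE 0.26, limma adjusted p 0.0142), with Macrophage-depleted 3 the highest. Cd55, which dissociates the enzymes that cleave C3, was higher by 0.74. Of 16 targets of the liver X receptors, 1 was higher (6.25%, against 11.6% over all genes) and 2 lower (12.5%, against 9.39%). Among the liver X receptor targets, fits lacking 1 library called 0 (without Macrophage-depleted 1 or Mertk-KO 2) to 3 (without Mertk-KO 1) higher and 1 to 3 (without Macrophage-depleted 1) lower. Apoe, the lipid carrier of macrophages and other cells, was at 1746, 1128 and 1437 against 2866 and 3319.9 (log2 fold change -1.12, SE 0.15, limma adjusted p 0.00222). The groups did not overlap for Apoe. Mylip, which marks the LDL receptor for degradation, was higher (349, 279 and 295 against 224 and 179.9; log2 fold change 0.61, SE 0.16, limma adjusted p 0.0201), and the other lower gene was Arl4c, a small GTPase (-0.66). For the complement genes, the counts with 1 library left out were 1 (without Macrophage-depleted 2) to 5 (without Macrophage-depleted 1) higher and 3 (without Macrophage-depleted 3) to 6 (without Macrophage-depleted 2) lower. The call was lost with 1 library left out for C3 (0.75 omitting Mertk-KO 2), Cd55 (0.54 omitting Macrophage-depleted 2, 0.61 omitting Mertk-KO 1), Cfp (-0.62 omitting Macrophage-depleted 1, -0.61 omitting Macrophage-depleted 3, -0.63 omitting Mertk-KO 2), Mylip (0.51 omitting Macrophage-depleted 1, 0.45 omitting Mertk-KO 2), C5ar1 (-1.17 to -0.71, 10 of 11 fits) and Arl4c (-0.75 to -0.48, 6 of 11 fits). Once adjusted for length and GC, Cd55 (0.57), Cfp (-0.47), C5ar1 (-1.02) and Arl4c (-0.63) did not pass, nor did Cd55 (0.76), Cfp (-0.29), C5ar1 (-0.78) and Arl4c (-0.59) in the TPM table.

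Of the lists examined, clock genes had the largest share of higher calls with all libraries fitted (50%, against 11.6% over all genes). The circadian clock is a loop in which Arntl (Bmal1) and its partner switch on Per, Cry and Nr1d genes through E-boxes in their promoters, and the products shut Arntl down. Of 18 clock genes, 9 were higher and 3 lower in Macrophage-depleted (median 0.88), and with the length and GC trend removed 8 and 3 passed. To show what the called members carry, the 250 bases before each RefSeq start site (GRCm38.p6) were searched for the E-box CACGTG, which reads the same on both strands. It stood in 6.021% of all 32851 windows and in the windows of 3 of the 10 called clock genes that had one, Ciart, Tef and Bhlhe41. Tef has 2 windows, each with 1 E-box, and all 4 windows are shown here 5′ to 3′ on the gene's strand with the E-box in capitals. A match is a description of the letters and not a binding site.

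Ciart, chr3:95882229-95882478, minus strand, with 3 E-boxes: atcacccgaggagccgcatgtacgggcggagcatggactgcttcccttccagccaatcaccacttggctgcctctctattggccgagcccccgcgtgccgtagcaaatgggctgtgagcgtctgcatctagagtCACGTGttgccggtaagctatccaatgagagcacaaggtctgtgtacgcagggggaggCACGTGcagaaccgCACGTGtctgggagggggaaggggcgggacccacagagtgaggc
Tef, first window, chr15:81802423-81802672, plus strand, with 1 E-box: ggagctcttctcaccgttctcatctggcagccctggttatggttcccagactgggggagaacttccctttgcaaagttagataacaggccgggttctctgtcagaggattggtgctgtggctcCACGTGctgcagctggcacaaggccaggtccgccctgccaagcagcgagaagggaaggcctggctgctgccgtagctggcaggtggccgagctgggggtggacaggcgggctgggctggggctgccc
Tef, second window, chr15:81811164-81811413, plus strand, with 1 E-box: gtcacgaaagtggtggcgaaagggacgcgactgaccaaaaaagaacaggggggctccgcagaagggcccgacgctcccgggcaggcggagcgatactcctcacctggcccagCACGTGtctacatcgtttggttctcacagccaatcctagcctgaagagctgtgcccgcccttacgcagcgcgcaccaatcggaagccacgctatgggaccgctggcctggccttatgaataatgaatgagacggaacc
Bhlhe41, chr6:145865421-145865670, minus strand, with 1 E-box: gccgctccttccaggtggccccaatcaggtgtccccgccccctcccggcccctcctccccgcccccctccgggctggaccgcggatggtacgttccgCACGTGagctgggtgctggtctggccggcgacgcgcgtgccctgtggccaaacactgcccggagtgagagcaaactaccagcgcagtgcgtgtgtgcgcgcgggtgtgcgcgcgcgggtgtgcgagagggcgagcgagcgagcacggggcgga

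Ciart, a repressor of the clock whose window holds the 3 E-boxes, was at 360.4, 378 and 399 in Macrophage-depleted and 167 and 31.2 in Mertk-KO (log2 fold change 2.37, SE 0.64, limma adjusted p 0.0243). The depleted libraries lay close together and above both Mertk-KO libraries, of which Mertk-KO 2 was the lower. Tef, a transcription factor of the clock's output, was at 3640.3, 3136 and 3654 against 2380.0 and 1213 (log2 fold change 1.03, SE 0.26, limma adjusted p 0.0185), and Bhlhe41, a repressor that binds E-boxes, at 755, 774 and 818 against 583 and 315 (log2 fold change 0.87, SE 0.26, limma adjusted p 0.0339). Neither overlapped between the groups. Nr1d2, a nuclear receptor that represses Arntl, had 2693, 2731 and 2867 against 952 and 942 (log2 fold change 1.54, SE 0.12, limma adjusted p 0.000173). The Mertk-KO pair lay close together on Nr1d2, unlike on Ciart or Tef.

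Per2, a core repressor, was at 428, 407 and 509 against 182 and 25.9 (log2 fold change 2.67, SE 0.61, limma adjusted p 0.0131), and Per3 at 1002, 868 and 1039.6 against 319 and 126 (log2 fold change 2.27, SE 0.36, limma adjusted p 0.00376). In both, Mertk-KO 2 lay lowest of the 5 libraries. Hlf, which is related to Tef, was at 809, 791 and 1048 against 448 and 246 (log2 fold change 1.40, SE 0.22, limma adjusted p 0.00376), and Dbp, of the same family, at 1916, 1757 and 1996 against 1049 and 246 (log2 fold change 1.89, limma adjusted p 0.0201). Cry2, the partner of the Per proteins, differed by 0.90 (adjusted p 0.0191). Arntl went the other way, with 7.04, 29.7 and 17.99 in Macrophage-depleted and 92.9 and 331 in Mertk-KO (log2 fold change -3.40, SE 0.61, limma adjusted p 0.00547). It was lower without overlap in the depleted libraries and highest in Mertk-KO 2. Nfil3, a repressor opposed to Dbp, was also lower (70.4, 73.5 and 53.2 against 130.1 and 217; log2 fold change -1.35, SE 0.26, limma adjusted p 0.00684).

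WT libraries spread widely on these genes, with Arntl at 199.9, 73.7 and 69.2, Per2 at 88.3, 193 and 203 and Ciart at 44.7, 118 and 149.8. WT 1 had the highest Arntl and the lowest Per2 and Ciart of the 3. The labels do not give the hour at which hearts were taken, and its part in the result was not tested. Among the clock genes, fits lacking 1 library called 4 (without Macrophage-depleted 3 or Mertk-KO 2) to 12 (without Mertk-KO 1) higher. Medians of the list ran from 0.42 (without Mertk-KO 2) to 1.33 (without Mertk-KO 1). Calls that depended on 1 library were those of Ciart (2.37 omitting Macrophage-depleted 2, 2.33 omitting Macrophage-depleted 3, 1.17 omitting Mertk-KO 2), Tef (0.99 omitting Macrophage-depleted 3, 0.54 omitting Mertk-KO 2), Dbp (1.94 omitting Macrophage-depleted 2, 1.85 omitting Macrophage-depleted 3, 0.85 omitting Mertk-KO 2), Cry2 (0.87 omitting Macrophage-depleted 3, 0.44 omitting Mertk-KO 2) and Bhlhe41 (0.42 to 0.89, 4 of 11 fits). Values shifted for Ciart to 3.56 omitting Mertk-KO 1, Bhlhe41 to 1.31 omitting Mertk-KO 1, Per2 to 4.06 omitting Mertk-KO 1, Per2 to 1.29 omitting Mertk-KO 2, Dbp to 2.93 omitting Mertk-KO 1 and Cry2 to 1.35 omitting Mertk-KO 1. The length and GC adjustment left Bhlhe41 (0.63) uncalled, and the TPM table Bhlhe41 (1.03).

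**Figure D4:**
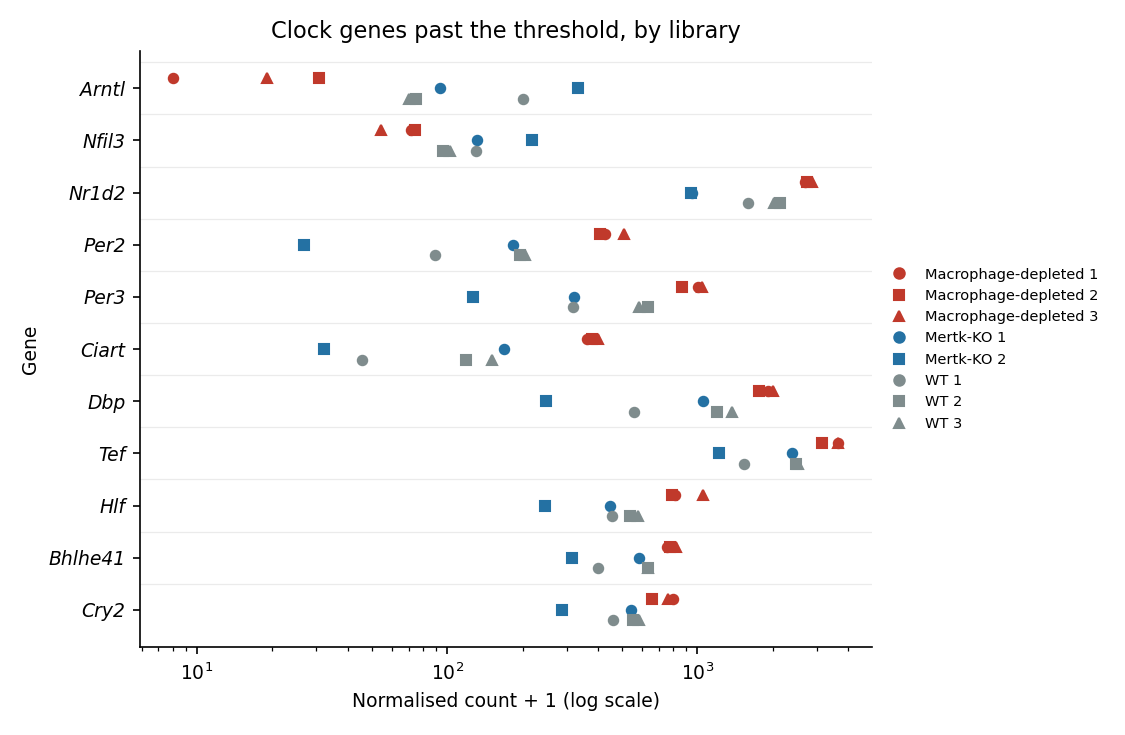
Points give each library's normalised count + 1 on a log axis for 11 clock genes past the threshold, red for Macrophage-depleted, blue for Mertk-KO and grey for WT. Arntl and Nfil3 are lowest in the depleted libraries, the other 9 genes are highest in the depleted libraries, and Mertk-KO 2 lies farther from the depleted libraries than Mertk-KO 1 for each gene, by very little for Nr1d2.

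Immediate early and heat shock genes had more lower than higher calls in Macrophage-depleted against Mertk-KO. Of 22 immediate early genes, which answer stimuli within minutes, 9 were lower (40.9%) and 2 higher (9.09%), with a median of -0.82. Over all genes 9.39% were lower and 11.6% higher. With a weight per library 0 passed, and with these 5 libraries fitted alone 3 were lower. Against WT, 1 was higher and 0 lower in Macrophage-depleted (median -0.05), and 5 were higher and 0 lower in Mertk-KO (median 0.83). Atf3, a stress-induced repressor, was at 64.8, 53.7 and 35.3 in Macrophage-depleted and 296 and 213 in Mertk-KO (log2 fold change -2.31, SE 0.39, limma adjusted p 0.00432). Both Mertk-KO libraries were above every depleted and every WT library (29.8, 29.7 and 80.7). Fos, a subunit of AP-1, was at 77.4, 26.9 and 31.7 against 268 and 543 (log2 fold change -3.21, SE 0.74, limma adjusted p 0.0138), yet WT alone ranged over 216, 46.1 and 484. Btg2, an antiproliferative gene, was at 550.4, 440.5 and 396 against 1101 and 1131 (log2 fold change -1.28, SE 0.32, limma adjusted p 0.0187). The serum response CArG box (CCWWWWWWGG, where W is A or T) stood in 1.467% of all windows. Among the 10 called members with a window only Egr2 held it, in windows not shown here. The cAMP response element TGACGTCA, which reads the same on both strands, stood in 1.546% of all windows. Among those 10 members it stood in the window of Btg2 alone, shown here with the element in capitals.

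Btg2, chr1:134079156-134079405, minus strand: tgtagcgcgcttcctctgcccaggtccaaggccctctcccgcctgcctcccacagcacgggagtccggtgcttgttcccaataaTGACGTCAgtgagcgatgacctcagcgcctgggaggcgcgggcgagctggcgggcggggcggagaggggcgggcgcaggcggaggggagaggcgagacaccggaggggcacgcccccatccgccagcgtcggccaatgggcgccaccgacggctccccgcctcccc

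Egr2 (-1.73), Fosb (-2.46), Nr4a1 (-2.21), Nr4a2 (-1.49), Ier2 (-0.97) and Ccn1 (-0.80) were the other lower genes, the first 4 of them transcription factors. Ier3, which protects from cell death, was higher (389, 366 and 439 against 319 and 222; log2 fold change 0.57, SE 0.14, limma adjusted p 0.0192), as was Klf6, a zinc-finger factor (0.41). Adjusted for length and GC, 4 were lower and 1 higher. For the immediate early genes, the counts with 1 library left out were 0 (without Macrophage-depleted 3 or Mertk-KO 2) to 3 (without Mertk-KO 1) higher and 1 (without Macrophage-depleted 2) to 10 (without WT 3) lower. The threshold was missed, with 1 library left out, by Fos (-2.92 omitting Macrophage-depleted 2), Btg2 (-1.26 omitting Macrophage-depleted 2, -1.18 omitting Macrophage-depleted 3), Egr2 (-1.66 omitting Macrophage-depleted 1, -1.66 omitting Macrophage-depleted 2), Ier2 (-0.96 omitting Macrophage-depleted 2, -0.82 omitting Macrophage-depleted 3, -0.55 omitting Mertk-KO 2), Ccn1 (-0.75 omitting Macrophage-depleted 2, -0.63 omitting Macrophage-depleted 3, -0.53 omitting Mertk-KO 2), Ier3 (0.50 omitting Macrophage-depleted 3, 0.31 omitting Mertk-KO 2), Klf6 (0.37 omitting Macrophage-depleted 2, 0.38 omitting Macrophage-depleted 3, 0.20 omitting Mertk-KO 2), Fosb (-2.87 to -2.06, 9 of 11 fits), Nr4a1 (-2.23 to -1.94, 8 of 11 fits) and Nr4a2 (-1.63 to -0.99, 9 of 11 fits). Uncalled after the length and GC adjustment were Egr2 (-1.65), Fosb (-2.36), Nr4a1 (-2.03), Nr4a2 (-1.51), Ier2 (-0.71), Ccn1 (-0.64) and Klf6 (0.11), and in the TPM table Egr2 (-1.16), Nr4a1 (-2.16), Nr4a2 (-1.26), Ier2 (-0.91), Ccn1 (-0.74) and Klf6 (0.44).

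Heat shock genes had 10 of 15 members lower (66.7%, against 9.39% over all genes) and 0 higher (median -0.44), and 8 lower with the trend removed. With a weight per library 2 were lower, and with these 5 libraries fitted alone 0. Against WT, 0 were called in Macrophage-depleted (median 0.05), while 9 were higher and 1 lower in Mertk-KO (median 0.49). These encode chaperones that hold or refold damaged proteins. Hspb1, a small heat shock protein, was at 1542, 1100.2 and 1186 against 2997 and 2261 (log2 fold change -1.04, SE 0.15, limma adjusted p 0.00269). Hsph1, a partner of Hsp70, was at 549, 568 and 571 against 1398 and 740.3 (log2 fold change -0.85, SE 0.19, limma adjusted p 0.0117), and Hspa8, the constitutive Hsp70, at 15455, 16935 and 13149 against 25234 and 19438 (log2 fold change -0.55, SE 0.13, limma adjusted p 0.0138). None of the 3 overlapped, and Mertk-KO 1 was the highest library each time. The inducible Hsp70 genes Hspa1a and Hspa1b are near-identical copies, so the split of reads between them is uncertain. Hspa1a was at 53.1, 32.3 and 31.6 in Macrophage-depleted and 2007 and 105 in Mertk-KO (log2 fold change -3.57, SE 0.90, limma adjusted p 0.0193), and Hspa1b at 35.9, 54.5 and 49.9 against 1995 and 75.4 (log2 fold change -3.05, SE 0.93, limma adjusted p 0.0374). Mertk-KO 1 was far above every other library for both genes. Cryab, the lens and muscle chaperone, was at 13940.1, 12519.7 and 13333 against 18417 and 17458 (log2 fold change -0.44, SE 0.09, limma adjusted p 0.0106). Among the heat shock genes, fits lacking 1 library called 0 to 1 (without Mertk-KO 2) higher and 4 (without Macrophage-depleted 3) to 10 (without Mertk-KO 2 or LXR-DKO 3) lower. None of the 6 called members with a RefSeq window held an exact match to the 13-letter heat shock element searched for. That string (the spaced GAA, TTC and GAA repeat, searched on both strands) stood in 0.4657% of all windows. Partial or differently spaced repeats were not searched for, so the result does not show that these windows lack the element. Leaving out 1 library ended the call for Hspa8 (-0.36 omitting Mertk-KO 1), Hspa1a (-3.46 omitting Macrophage-depleted 2, -3.44 omitting Macrophage-depleted 3, -1.45 omitting Mertk-KO 1) and Hspa1b (-3.17 to -0.70, 8 of 11 fits). The fitted change moved for Hspa1a to -5.69 omitting Mertk-KO 2, Hspa1b to -5.41 omitting Mertk-KO 2, Hsph1 to -0.40 omitting Mertk-KO 1 and Hsph1 to -1.31 omitting Mertk-KO 2. Once adjusted for length and GC, Hspa1b (-2.88) and Cryab (-0.17) did not pass, nor did Hspa8 (-0.39) and Hspa1b (-2.93) in the TPM table.

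Of 15 genes of the unfolded protein and integrated stress response, 6 were lower (40%) and 1 higher (6.67%), against 9.39% and 11.6% over all genes. With the length and GC trend removed 0 were lower and 1 higher. With a weight per library, or with these 5 libraries fitted alone, 0 passed. For the genes of that response, the counts with 1 library left out were 0 to 1 higher and 1 (without Macrophage-depleted 3 or Mertk-KO 2) to 6 (without Mertk-KO 1 or LXR-DKO 3) lower. Xbp1, a transcription factor of that response, was at 460.3, 606 and 514 against 698 and 815 (log2 fold change -0.53, SE 0.12, limma adjusted p 0.0135), and Herpud1, of endoplasmic reticulum degradation, was higher (2831, 2294 and 2826 against 2199 and 1792; log2 fold change 0.41, SE 0.12, limma adjusted p 0.0367). Among 13 glucocorticoid-responsive genes and metallothioneins (median 0.17) 1 was higher and 1 lower (7.69% each, against 11.6% and 9.39% over all genes). Klf9, a zinc-finger factor induced by glucocorticoids, was higher (1430.3, 1179 and 1544 against 839 and 666; log2 fold change 0.88, SE 0.16, limma adjusted p 0.00599) and Cdkn1a, the cell cycle inhibitor p21, lower (81.6, 189 and 149.6 against 238 and 280.2; log2 fold change -0.96, SE 0.28, limma adjusted p 0.0336). Klf9 was separate between the groups in every library. The call was lost with 1 library left out for Xbp1 (-0.42 omitting Mertk-KO 2), Cdkn1a (-0.62 omitting Macrophage-depleted 1, -1.05 omitting Macrophage-depleted 3, -0.84 omitting Mertk-KO 2) and Herpud1 (0.26 to 0.41, 5 of 11 fits). The length and GC adjustment left Xbp1 (-0.37) and Cdkn1a (-0.77) uncalled, and the TPM table Cdkn1a (-0.85).

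**Figure D5:**
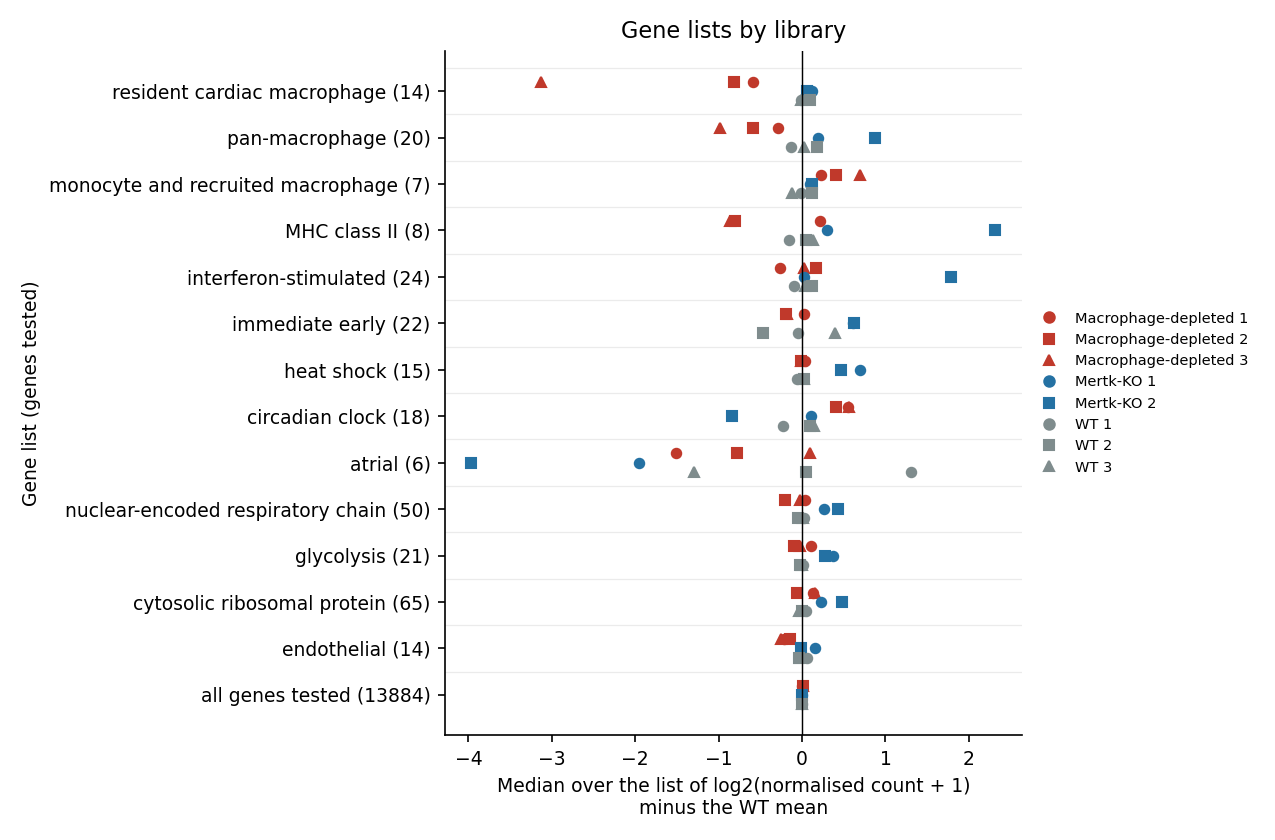
Each point is the median over 1 gene list of log2(normalised count + 1) minus the WT mean, for each Macrophage-depleted (red), Mertk-KO (blue) and WT (grey) library. Resident macrophage genes are lowest in Macrophage-depleted 3 (-3.12), and interferon-stimulated genes stand out in Mertk-KO 2 (1.79).

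Calls among cardiomyocyte genes went in both directions. Of 9 fetal and hypertrophy genes 2 were higher and 3 lower (22.2% and 33.3%, against 11.6% and 9.39% over all genes), or 1 and 2 with the length and GC trend removed. Among the fetal and hypertrophy genes, fits lacking 1 library called 1 (without Macrophage-depleted 2 or Macrophage-depleted 3 or Mertk-KO 1) to 2 higher. Myh7, the slow beta myosin heavy chain (chr14:54970684-54994626), was at 8978, 14558 and 9196 in Macrophage-depleted and 1744 and 2739.7 in Mertk-KO, with WT at 3453, 4116 and 3192 between them. All depleted libraries were above all others, and Macrophage-depleted 2 was the highest (log2 fold change 2.28, SE 0.22, limma adjusted p 0.000457). Myh6, the alpha heavy chain and a close paralog that can share reads with Myh7, was at 397868, 336386 and 384143 against 428147 and 314263 and did not pass (log2 fold change 0.02, limma adjusted p 0.944). Acta1, skeletal actin of the fetal heart program, moved the opposite way, at 4214, 2567 and 3049.7 against 11674 and 6752 (log2 fold change -1.47, SE 0.31, limma adjusted p 0.00954). Rcan1, an inhibitor of calcineurin that calcineurin signalling induces, was at 653, 761 and 629.5 against 1284 and 1648 (log2 fold change -1.10, SE 0.14, limma adjusted p 0.00134). Tnfrsf12a, the TWEAK receptor, was lower (361, 233 and 176 against 516 and 456; log2 fold change -0.98, SE 0.22, limma adjusted p 0.0125) and Xirp2, an intercalated disc protein, higher (0.80). Calls that depended on 1 library were those of Xirp2 (0.71 omitting Macrophage-depleted 2, 0.82 omitting Macrophage-depleted 3, 0.34 omitting Mertk-KO 1). A shift was seen for Myh7 to 1.04 in the TPM table and Xirp2 to 1.26 omitting Mertk-KO 2. After the length and GC adjustment, Tnfrsf12a (-0.67) and Xirp2 (0.14) did not pass.

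Of 17 sarcomere genes 2 were higher (11.8%) and 4 lower (23.5%), against 11.6% and 9.39% over all genes. Myl3, the ventricular essential light chain, was at 54655, 46815 and 49288 against 72392 and 82630 (log2 fold change -0.63, SE 0.10, limma adjusted p 0.00412), and Tnnc1, troponin C, at 20840.3, 17927 and 20217 against 25771 and 26429.8 (log2 fold change -0.41, SE 0.09, limma adjusted p 0.0125). The groups did not overlap for either gene. Ttn, titin, with a very long transcript, was higher (74925, 70421 and 69119.9 against 58902 and 42035; log2 fold change 0.52, SE 0.16, limma adjusted p 0.0369). Once the length and GC trend was removed, 1 sarcomere gene was higher and 1 lower. Of 20 calcium cycling and ion channel genes 4 were higher (20%) and 2 lower (10%), against 1 and 1 with that trend removed. Hcn2, a pacemaker channel, was at 166, 144 and 128 against 443 and 315 (log2 fold change -1.36, SE 0.17, limma adjusted p 0.00128), and Kcnd2, a channel of the transient outward current, at 576, 579.7 and 514 against 354 and 284 (log2 fold change 0.80, SE 0.11, limma adjusted p 0.00231). Neither overlapped between the groups. For the sarcomere genes, the counts with 1 library left out were 0 to 3 (without Mertk-KO 1) higher and 2 to 5 (without Macrophage-depleted 1 or Mertk-KO 1) lower. Among the channel genes, fits lacking 1 library called 1 (without Macrophage-depleted 3) to 7 (without Mertk-KO 1) higher and 1 to 2 lower. The threshold was missed, with 1 library left out, by Ttn (0.28 to 0.55, 8 of 11 fits). The fitted change moved for Myl3 to -0.40 with the length and GC trend removed and Kcnd2 to 0.51 with the length and GC trend removed. The length and GC adjustment left Tnnc1 (-0.11) and Ttn (-0.06) uncalled.

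Atrial markers varied between libraries of each group. Their summed level was 3562, 5496 and 7019 in Macrophage-depleted, 3312 and 1903 in Mertk-KO, and 3849 to 26536 in WT. Myl7, the atrial light chain, was at 374, 769 and 1526 against 203 and 22.6, without a call (log2 fold change 3.45, SE 1.42, limma adjusted p 0.101). Nr2f2, an atrial transcription factor, was the 1 call of 6 (16.7%, against 11.6% higher over all genes). It was at 206, 236 and 215 against 119 and 157 (log2 fold change 0.67, SE 0.16, limma adjusted p 0.0141). Fgf12, an intracellular factor that tunes sodium channels and the gene with the greatest rise by the naming rule, was at 16.9, 43.1 and 67.6 against 3.98 and 1.078 (log2 fold change 3.56, SE 0.93, limma adjusted p 0.0213). WT ranged over 144, 53.2 and 16.8 for Fgf12, in the same library order as the summed atrial markers. The part of atrial tissue in the Fgf12 result was not tested. For the atrial markers, the counts with 1 library left out were 0 (without Macrophage-depleted 2) to 4 (without LXR-DKO 3) higher. Leaving out 1 library ended the call for Nr2f2 (0.62 omitting Macrophage-depleted 2, 0.48 omitting Mertk-KO 1) and Fgf12 (3.45 omitting Macrophage-depleted 2, 3.13 omitting Macrophage-depleted 3, 2.92 omitting Mertk-KO 2). In the TPM table, Fgf12 (2.67) did not pass.

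Most respiratory chain and glycolysis genes were lower in Macrophage-depleted than in Mertk-KO by small amounts, and fewer were after the length and GC adjustment. Of 50 nuclear-encoded respiratory chain subunits 35 were lower and 0 higher (median -0.39), and of 21 glycolysis genes 14 were lower (median -0.31). Of 65 cytosolic ribosomal protein genes 20 were lower (median -0.29). These transcripts are short, with median lengths of 1232, 2681 and 1109 bases against 3381 over all genes. With the length and GC trend removed 10, 4 and 4 were lower, with medians of -0.23, -0.12 and -0.05. With a weight per library 1, 2 and 0 were lower, and with these 5 libraries fitted alone 0 of each list. Against WT, 0 of each list were called in Macrophage-depleted (medians -0.06, -0.02 and 0.09). In Mertk-KO against WT 23, 10 and 27 were higher and 0 lower (medians 0.34, 0.30 and 0.33). Uqcrq, a subunit of complex III, was at 5073, 4147 and 4588 against 6558 and 7363 (log2 fold change -0.60, SE 0.11, limma adjusted p 0.00543). Pfkp, the platelet form of phosphofructokinase, was at 673, 639 and 657 against 968 and 989 (log2 fold change -0.58, SE 0.08, limma adjusted p 0.00291), and Pgk1, phosphoglycerate kinase, at 4703, 4215 and 4856 against 6375 and 6029.6 (log2 fold change -0.44, SE 0.08, limma adjusted p 0.00634). Rpl18, a protein of the large ribosomal subunit, was at 1965, 1575 and 1907 against 2489 and 2634 (log2 fold change -0.50, SE 0.10, limma adjusted p 0.00856). All 4 were separate between the groups. Among the respiratory chain genes, fits lacking 1 library called 21 (without Mertk-KO 2) to 42 (without Mertk-KO 1) lower. For the glycolysis genes, the counts with 1 library left out were 7 (without Macrophage-depleted 2) to 14 (without LXR-DKO 2 or LXR-DKO 3) lower. Among the ribosomal protein genes, fits lacking 1 library called 0 to 4 (without Mertk-KO 2) higher and 2 (without Macrophage-depleted 2) to 44 (without Mertk-KO 1) lower. Their median ranged from -0.38 (without Mertk-KO 1) to -0.16 (without Mertk-KO 2). A shift was seen for Pfkp to -0.92 with the length and GC trend removed.

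None of the 13 genes of the mitochondrial genome was called (1 lower with the length and GC trend removed). For the genes of the mitochondrial genome, the counts with 1 library left out were 0 to 1 (without Mertk-KO 2) higher and 0 to 3 (without Mertk-KO 1) lower. Among 20 genes of mitochondrial biogenesis, dynamics and mitophagy 5 were higher (25%) and 4 lower (20%), against 2 and 1 with the length and GC trend removed. Over all genes 11.6% were higher and 9.39% lower, or 3.72% and 5.61% with that trend removed. Gabpa, a transcription factor for respiratory genes, was at 879, 1072 and 959 against 432 and 719.7 (log2 fold change 0.79, SE 0.17, limma adjusted p 0.0101), and Ppargc1a, the coactivator PGC-1 alpha, at 1447, 1406 and 1493 against 964 and 1068 (log2 fold change 0.51, SE 0.13, limma adjusted p 0.0183). Both were higher without overlap, while Phb2, a prohibitin of the inner membrane, was lower (2042, 1739 and 2160.2 against 2626 and 2562; log2 fold change -0.39, SE 0.11, limma adjusted p 0.0235). Of 27 fatty acid genes 6 were lower (22.2%) and 0 higher, against 2 and 1 with the trend removed. The lower ones were led by Acads, the short-chain acyl-CoA dehydrogenase (2521, 2061 and 2264 against 3173 and 3054; log2 fold change -0.45, SE 0.09, limma adjusted p 0.00683). Of 24 autophagy and lysosome genes 7 were lower (29.2%), against 3 with the trend removed. Among the 7 was the protease cathepsin B (Ctsb; 5363, 5601 and 5158 against 7391 and 6361; log2 fold change -0.35, SE 0.08, limma adjusted p 0.0141). Among the mitochondrial upkeep genes, fits lacking 1 library called 1 (without Macrophage-depleted 3) to 5 (without LXR-DKO 2 or LXR-DKO 3) higher and 1 (without Macrophage-depleted 2 or Mertk-KO 1) to 4 lower. For the autophagy and lysosome genes, the counts with 1 library left out were 0 to 1 (without Mertk-KO 1 or LXR-DKO 3) higher and 2 (without Macrophage-depleted 3) to 7 (without Macrophage-depleted 1 or Mertk-KO 2 or LXR-DKO 3) lower. Among the fatty acid genes, fits lacking 1 library called 0 to 2 (without Mertk-KO 1 or Mertk-KO 2) higher and 3 (without Macrophage-depleted 2) to 7 (without Mertk-KO 1) lower. Calls that depended on 1 library were those of Ppargc1a (0.49 omitting Macrophage-depleted 3, 0.44 omitting Mertk-KO 1), Phb2 (-0.30 omitting Macrophage-depleted 2, -0.38 omitting Mertk-KO 1) and Ctsb (-0.24 omitting Mertk-KO 1). The fitted change moved for Gabpa to 0.43 omitting Mertk-KO 1 and Gabpa to 0.38 with the length and GC trend removed. Once adjusted for length and GC, Ppargc1a (0.01), Phb2 (-0.24) and Acads (-0.23) did not pass, nor did Acads (-0.36) in the TPM table.

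Apln, the peptide apelin, was at 137, 127 and 87.8 in Macrophage-depleted and 307 and 388 in Mertk-KO (log2 fold change -1.57, SE 0.17, limma adjusted p 0.000858), and Cldn5, the endothelial claudin, at 106, 192 and 113 against 370.4 and 612 (log2 fold change -1.84, SE 0.31, limma adjusted p 0.00433). Depleted libraries were lower without overlap for both. Together with Egfl7, Eng and Tie1 these made 5 lower of 14 endothelial genes (35.7%, against 9.39% over all genes), with a list median of -0.28. The endothelial markers summed to 16238, 16962 and 16488 in Macrophage-depleted and 20585 and 18516 in Mertk-KO. For the endothelial genes, the counts with 1 library left out were 0 to 1 (without Mertk-KO 1) higher and 2 (without Macrophage-depleted 3) to 6 (without Mertk-KO 2) lower. Medians of the list ran from -0.35 (without Mertk-KO 2) to -0.18 (without Mertk-KO 1). The threshold was missed, with 1 library left out, by Egfl7 (-0.50 omitting Macrophage-depleted 2, -0.51 omitting Macrophage-depleted 3, -0.34 omitting Mertk-KO 2), Eng (-0.35 to -0.18, 8 of 11 fits) and Tie1 (-0.38 to -0.26, 8 of 11 fits). The length and GC adjustment left Egfl7 (-0.32), Eng (-0.18) and Tie1 (-0.26) uncalled, and the TPM table Egfl7 (-0.54), Eng (-0.30) and Tie1 (-0.30).

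Of 28 matrix genes 6 were lower (21.4%, against 9.39% over all genes) and 1 higher (3.57%, against 11.6%). With the length and GC trend removed 4 were lower and 1 higher. Mmp13, a collagenase, had 2.82, 0 and 0 normalised counts against 14.6 and 30.2, which is 2 reads in all in Macrophage-depleted and 39 in Mertk-KO, a ratio of 40.8 between Mertk-KO and Macrophage-depleted with an exact counting interval of 10.6 to 348, which treats estimated reads summed over libraries as counts and covers counting error only (log2 fold change -3.82, SE 0.65, limma adjusted p 0.00467). Eln, elastin, was at 282, 270.1 and 351 against 554 and 609 (log2 fold change -0.96, SE 0.19, limma adjusted p 0.00826), and Col4a2, of basement membrane collagen, at 3415, 3823 and 3156 against 6349 and 4806 (log2 fold change -0.68, SE 0.15, limma adjusted p 0.0113). Timp3, an inhibitor of metalloproteinases, was the higher one, at 4217, 4080.0 and 4633 against 2651 and 1595 (log2 fold change 1.07, SE 0.17, limma adjusted p 0.00389). Depleted libraries were separate from Mertk-KO for all 4. The other lower genes were Col4a1 (-0.79), Sparc, a collagen-binding protein (-0.71), and Loxl1, which cross-links elastin (-0.46). Among the matrix genes, fits lacking 1 library called 1 to 2 (without Macrophage-depleted 1 or Mertk-KO 1) higher and 2 (without Mertk-KO 1) to 9 (without Mertk-KO 2) lower. Leaving out 1 library ended the call for Col4a2 (-0.48 omitting Mertk-KO 1), Col4a1 (-0.59 omitting Mertk-KO 1), Loxl1 (-0.39 omitting Macrophage-depleted 1, -0.47 omitting Macrophage-depleted 3, -0.30 omitting Mertk-KO 1) and Sparc (-0.83 to -0.56, 7 of 11 fits). A shift was seen for Timp3 to 0.70 omitting Mertk-KO 2. Uncalled after the length and GC adjustment were Sparc (-0.57) and Loxl1 (-0.32), and in the TPM table Sparc (-0.68) and Loxl1 (-0.42).

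Other cell types of the heart gave few calls. Of 14 fibroblast markers only Lum, the proteoglycan lumican, was called (7.14%, against 11.6% higher over all genes). It was higher, at 874, 1452 and 1379 against 670.5 and 783 (log2 fold change 0.73, SE 0.22, limma adjusted p 0.0346). Of 10 smooth muscle and pericyte markers none was called. For the fibroblast markers, the counts with 1 library left out were 0 (without Macrophage-depleted 2 or Macrophage-depleted 3 or Mertk-KO 1) to 1 higher and 0 to 1 (without Mertk-KO 2) lower. Among the smooth muscle and pericyte markers, fits lacking 1 library called 0 to 3 (without Mertk-KO 1) higher. Cfd, adipsin, was at 8.45, 4.95 and 2.16 against 51.5 and 16.2 (log2 fold change -2.42, SE 0.60, limma adjusted p 0.0179). With Car3, a carbonic anhydrase, and Cidec, a lipid droplet protein, it made 3 lower of 7 adipocyte markers (42.9%, against 9.39% over all genes). Upk3b was the 1 call of 8 lymphatic and mesothelial genes (12.5%, against 11.6% higher over all genes). For the lymphatic and mesothelial genes, the counts with 1 library left out were 0 to 3 (without WT 3) higher. Upk3b, a mesothelial marker, was at 85.9, 85.6 and 80.6 against 2.66 and 15.1 (log2 fold change 3.47, SE 1.11, limma adjusted p 0.0442), but 61.7, 69.6 and 2.10 in WT, where WT 3 was at the level of Mertk-KO. Msln, another mesothelial gene, was listed at 69.0, 36.1 and 39.6 against 5.31 and 11.9 and at 27.6, 45.0 and 0 in WT. The part of the heart's covering layer in the Upk3b result was not tested. The 5 erythrocyte genes tested gave no call, but 4 lower without Mertk-KO 1, and summed to 9809.8 in Mertk-KO 2 against 3302 to 4862 in the other 4 libraries. Among the adipocyte markers, fits lacking 1 library called 0 to 1 (without Mertk-KO 2) higher and 1 (without Macrophage-depleted 3 or Mertk-KO 1) to 4 (without Macrophage-depleted 1 or LXR-DKO 3) lower. The call was lost with 1 library left out for Lum (0.60 omitting Macrophage-depleted 2, 0.64 omitting Macrophage-depleted 3, 0.62 omitting Mertk-KO 1), Cfd (-2.00 omitting Macrophage-depleted 3, -1.61 omitting Mertk-KO 1), Car3 (-1.45 omitting Macrophage-depleted 3, -1.17 omitting Mertk-KO 1), Cidec (-2.01 omitting Macrophage-depleted 2, -2.20 omitting Macrophage-depleted 3, -2.19 omitting Mertk-KO 2) and Upk3b (2.40 to 3.50, 7 of 11 fits). Once adjusted for length and GC, Lum (0.53) and Upk3b (3.56) did not pass, nor did Lum (0.77), Cidec (-1.06) and Upk3b (2.97) in the TPM table.

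Cenpf, a centromere protein of dividing cells, was at 697, 753 and 776 in Macrophage-depleted and 95.5 and 169 in Mertk-KO (log2 fold change 2.53, SE 0.32, limma adjusted p 0.00158). All depleted libraries exceeded both Mertk-KO libraries by a wide margin, and separate groups were part of the rule that named Cenpf. Of 18 cell cycle genes only Cenpf and Tyms, thymidylate synthase (0.78), were called, both higher (11.1%, against 11.6% over all genes). Cdk1, the kinase of mitosis, was on the opposite side at 4.22, 11.3 and 8.63 against 18.6 and 20.5 (log2 fold change -1.27, limma adjusted p 0.0651). Gdap10, a long non-coding transcript by its annotation, was at 135, 86.3 and 92.1 against 10.6 and 12.9 (log2 fold change 3.02, SE 0.42, limma adjusted p 0.00235), and Slitrk4, a membrane protein known from neurons, at 35.2, 56.6 and 51.1 against 6.64 and 9.71 (log2 fold change 2.40, SE 0.36, limma adjusted p 0.00352). Of the 20 genes named for the greatest changes, 10 in each direction, 17 passed with the length and GC trend removed and 12 of 18 present passed in the TPM table. Of those 20, 8 passed with the 5 libraries fitted alone, 12 with a weight per library, 12 without Macrophage-depleted 2 and 14 without Macrophage-depleted 3. Calls that depended on 1 library were those of Tyms (0.66 to 0.80, 4 of 11 fits). Values shifted for Slitrk4 to 1.54 with the length and GC trend removed. The length and GC adjustment left Tyms (0.70) uncalled, and the TPM table Cenpf (1.60) and Tyms (0.17).

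Beside the same WT libraries, the groups are described here by their own differences. Macrophage-depleted (n = 3) differed from WT in 33 genes (0.238%), 11 higher (0.0792%) and 22 lower (0.158%), and Mertk-KO (n = 2) in 1287 (9.27%), 469 higher (3.38%) and 818 lower (5.89%). The comparisons share the WT libraries, so the members are given side by side without a test between them. Neither was adjusted for transcript length, with which levels relative to WT fell in both Mertk-KO libraries (Spearman rho -0.26 and -0.50). WT received toxin and the labels give none for Mertk-KO, so toxin and the knockout cannot be told apart in Mertk-KO against WT. For Timd4 the log2 differences from WT were -3.61 in Macrophage-depleted and 0.40 in Mertk-KO, and for Cd163 -3.42 and -0.36. Apln stood at -1.24 and 0.33, and Myh7 at 1.58 and -0.71. Those 4 genes differed from WT past the threshold in Macrophage-depleted and not in Mertk-KO, where Myh7 missed it narrowly (limma adjusted p 0.0591). Atf3 stood at 0.25 and 2.57, Hspb1 at -0.25 and 0.79, Acta1 at 0.09 and 1.56, and Nr1d2 at 0.54 and -1.003, and these 4 passed in Mertk-KO and not in Macrophage-depleted. Ccr2 stood at 1.17 and -0.60 and passed in neither.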

How the data were processed

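Heart RNA was amplified with a single-cell kit before library preparation, per the labels' protocols. The authors deposited 2 tables: signal values per gene, which by their steps are estimated reads plus 0.5, divided by the effective size of the library, and TPM values rescaled between libraries. CASAVA 1.8.2, cutadapt, RSEM 1.2.20, kallisto 0.43.1 and GRCm38 appear in the submitters' processing notes, with no word on which made which table or whether strand was used in counting. Between 58.9% and 62.2% of low values lay within 0.01 of a whole read, so no count test was run.

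Here the added 0.5 read was removed, values were put on the scale of the mean effective library size, and log2(value + 1) was fitted for the 13884 genes with a mean of at least 10 over the 11 libraries, all 4 groups in 1 model with limma 3.58.1 in R 4.3.3 (variances moderated along their trend with level, 2-sided, Benjamini-Hochberg adjustment, threshold 0.05). The fit was tested on simulated data with known changes. The simulation gave every group the same spread and had no trend with length, so it cannot show how such differences affect the calls. LXR-DKO entered that fit, and its length trend and Mertk level are given beside those of the groups compared. Genes named are Siglec1 and Mertk, then the 10 higher and 10 lower genes with the greatest change among those past the threshold, separate between the groups and with a mean of at least 30 in the higher group (no predicted genes or pseudogenes), and at most 4 genes of lowest p from each of 37 gene lists. Other members named to complete a list were chosen after their values were seen. The members and lists were chosen with earlier results of these data known. Alternatives were the TPM table, pseudocounts of 0.5 and 5, no filter and a mean of at least 50, 2 other scalings, a fit of the 2 groups alone, a weight per library, a replicate block, removal of each library's trend over transcript length and GC content, and leaving out each library in turn. Some genes past the threshold are counted but not reported here by name.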

Additional observations from a re-analysis of the deposited data

How the results depend on the processing

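Against 2911 genes called (1607 higher, 1304 lower), the TPM table gave 1556 (915 and 641), the length and GC adjustment 1294 (516 and 778), a weight per library 438 (334 and 104) and a fit of the 2 groups alone 146 (116 and 30). Of the 2911 genes, 1308, 906, 438 and 145 were among those calls in the same order. Leaving out 1 library gave 1379 to 3238 calls, 800 to 2128 higher and 579 to 1355 lower, the fewest without Macrophage-depleted 2 and then Macrophage-depleted 3 (1641). Where a group was left with 1 library, that library was assumed to vary like the others. With the replicate block 2036 genes were called, 1212 higher and 824 lower. Replicate numbers were not treated as pairing the samples. Deviations from the group means correlated at 0.0311 between the libraries numbered 1 and 0.106 between those numbered 2. The deviations of the 2 Mertk-KO libraries are opposite by construction, so these values cannot decide whether samples were paired. Other scalings, pseudocounts and filters gave 2107 to 2957 calls. Among genes named, Ttn turned to -0.0644 with the length and GC trend removed. Igtp ranged from -5.39 without Mertk-KO 1 to 0.17 without Mertk-KO 2. Myh6, near 0 in the fit reported, turned to -0.0144 with the replicate block and -0.0644 with that trend removed, and ranged from -0.20 without Mertk-KO 2 to 0.24 without Mertk-KO 1. The cause was not tested. Depth limits genes near the level of 3 reads, such as Timd4 and Mmp13 after depletion.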

Other observations

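Siglec1, which carries the toxin receptor, and Mertk lie on the same chromosome, with starts 2.37 Mb apart. Within 10 Mb of either start, a window chosen after the data were seen, 195 genes were tested. Between Macrophage-depleted and Mertk-KO 48 of them were called (24.6%, against 21.0% over all genes). Of those 48, 19 were also called with the length and GC trend removed, and their direction in that fit was not compared.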
